A study of Mus musculus with 6 samples.

Results

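The 10 genes described here encode the effectors of the Hippo pathway and several of their partners and targets: the co-activators Yap1 and Wwtr1 (which encodes TAZ), the DNA-binding factors Tead1, Tead2, Tead3 and Tead4, the matricellular genes Ccn1 and Ccn2, the angiomotin gene Amotl2 and the co-repressor Vgll4. They were chosen by name, as the rows of the deposited gene table with these symbols. All 10 were found among 55471 genes, and all 10 were among the 15218 genes that passed the filter on low counts. The tissue was the left atrium of adult male mice of the strain C57BL/6J, and its poly(A) RNA had been sequenced in bulk. In the mitral regurgitation group (MR) the anterior mitral leaflet was punctured under echocardiographic guidance, a procedure meant to make the valve leak. In the control group (Sham) the apex of the heart was punctured and the leaflet was left intact. Mice were operated on when 10 weeks old, tissue was taken 2 weeks later, and each group held 3 animals with 1 library each, labelled as biological replicates. The labels name no sort of its cells.

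In the Hippo pathway, a cascade of protein kinases phosphorylates YAP and TAZ and keeps them out of the nucleus. When the cascade is low, or when cells are stretched or sit on stiff matrix, both proteins enter the nucleus and bind TEAD factors, which carry the DNA-binding domain that YAP and TAZ lack. CCN1 and CCN2 are secreted matrix-associated proteins, induced by YAP, TAZ and TEAD and by serum and mechanical load, and CCN2 is widely used as a marker of fibrotic remodelling in the heart. AMOTL2 binds YAP and TAZ and is itself a target of theirs, and VGLL4 competes with YAP and TAZ for TEAD. The pathway is set largely by protein phosphorylation and location, which transcript counts do not measure.

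TEAD proteins recognise the sequence GGAATG, the core of the muscle element called MCAT, and upstream sequences are shown for 2 target genes and the 2 co-activators among the members, and for Ankrd1, a stretch-induced target gene that rose in MR. The first listed RefSeq start of each gene was used with the 250 bases before it (build GRCm38.p6, given 5′ to 3′ on the strand of the gene). Capitals mark GGAATG or, where the motif lies on the other strand, its reverse complement CATTCC.
Ccn1, chr3:145649986-145650235, minus strand: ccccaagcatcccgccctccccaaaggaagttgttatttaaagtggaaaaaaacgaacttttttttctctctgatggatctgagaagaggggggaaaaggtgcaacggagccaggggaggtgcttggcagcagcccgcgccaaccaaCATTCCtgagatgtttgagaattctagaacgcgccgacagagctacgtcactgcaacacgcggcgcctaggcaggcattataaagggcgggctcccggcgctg
Amotl2, chr9:102717554-102717803, plus strand: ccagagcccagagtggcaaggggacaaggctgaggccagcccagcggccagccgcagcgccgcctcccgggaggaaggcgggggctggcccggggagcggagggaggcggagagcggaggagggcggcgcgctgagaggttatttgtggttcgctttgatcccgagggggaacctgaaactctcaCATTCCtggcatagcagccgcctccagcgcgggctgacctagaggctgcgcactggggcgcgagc
Yap1, chr9:8004597-8004846, minus strand: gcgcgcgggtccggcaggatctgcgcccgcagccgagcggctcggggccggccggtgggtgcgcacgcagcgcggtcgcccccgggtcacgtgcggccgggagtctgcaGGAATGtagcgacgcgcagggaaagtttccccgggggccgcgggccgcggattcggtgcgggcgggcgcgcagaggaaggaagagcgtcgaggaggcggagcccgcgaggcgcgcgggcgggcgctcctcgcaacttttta
Wwtr1, chr3:57575911-57576160, minus strand: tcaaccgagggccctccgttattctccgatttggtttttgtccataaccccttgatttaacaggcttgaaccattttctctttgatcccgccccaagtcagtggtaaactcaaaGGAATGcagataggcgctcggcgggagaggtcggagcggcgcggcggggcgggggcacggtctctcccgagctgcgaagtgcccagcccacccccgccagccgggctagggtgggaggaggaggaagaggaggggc
Ankrd1, chr19:36119845-36120094, minus strand: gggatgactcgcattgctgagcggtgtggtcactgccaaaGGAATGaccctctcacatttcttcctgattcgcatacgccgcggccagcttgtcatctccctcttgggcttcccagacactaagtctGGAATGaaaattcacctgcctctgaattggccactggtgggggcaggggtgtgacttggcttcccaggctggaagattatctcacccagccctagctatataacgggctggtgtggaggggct
Upstream sequence was matched for 7 of the 10 members, all but Tead1, Tead4 and Ccn2, and 6 of these 7 held the motif on 1 strand or the other, against 12.6% of 27025 genes with such a sequence. The motif began at position -103 in Ccn1, -65 in Amotl2, -141 in Yap1 and -136 in Wwtr1, counted from the start, and at -182 in Tead3 and -82 in Vgll4. In Ankrd1 it stood at -210 and at -123. Among 11 of 17 other listed YAP and TAZ target genes with a sequence, 3 held the motif. These were Ankrd1 and Crim1, which rose in MR, and Axl, which did not pass the test described below. Igfbp3, Myof and Rbms3, which rose, and Gadd45a, which fell, did not hold it. The AP-1 motif TGANTCA, which reads the same on both strands, was in 0 of the 7 members and in 6.87% of all genes, and the CArG box of serum response factor in 0 of the 7 and in 1.4% of all genes. A match of letters describes these windows and is not a measurement of binding.

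Library totals were between 14124407 and 19222343 counts in MR and between 14718462 and 20039490 counts in Sham. The atrial transcripts Nppa and Myl7 averaged 77259 and 26280 TPM over the 6 libraries. CPM below are counts relative to the library total, scaled by TMM, a factor that sets the bulk of genes equal between libraries. TPM are the authors' values, which are also divided by gene length and so allow genes to be set side by side. The scaling matters for these genes: with library totals in place of TMM the median gene moved by 0.21 on the log2 scale towards MR, and in the deposited TPM by 0.33. In such bulk tissue, fewer cells of a type and less RNA per cell cannot be told apart.

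Of the 10 members, 1 changed in MR, namely Tead4, which rose (adjusted p below 0.05 over all tested genes, from the quasi-likelihood test of edgeR). The background was 22.4% of tested genes changed, 11.8% higher and 10.6% lower. The co-activators Yap1 and Wwtr1 stayed within 0.06 log2 units of Sham, Tead1 ended close to the threshold on the lower side, and Ccn1 and Ccn2 had higher means with wide spread between libraries. The log2 fold change was above 0 for 7 of the 10 and their median was 0.27, against 7629 of 15218 genes above 0 and a median of 0.0016 over all of them. For 4 members, all TEAD genes, the MR and Sham libraries did not overlap, 3 with MR above Sham and 1 with MR below. Over all tested genes the libraries did not overlap for 41.9%, with MR above for 20.6% and MR below for 21.2%. Under library totals 6 members passed and under the deposited TPM 8 passed, each of them upward. Of all 15218 tested genes, 4599 passed under library totals, 4025 of them upward. Under the deposited TPM 6140 passed, 5891 of them upward. There the median gene had shifted upward too, and beyond it the log2 fold changes were close to those with TMM (Tead4 1.11 and 1.07, Ccn1 0.62 and 0.60, Tead1 -0.35 and -0.34, Yap1 -0.03 and -0.03).

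**Figure D1:**
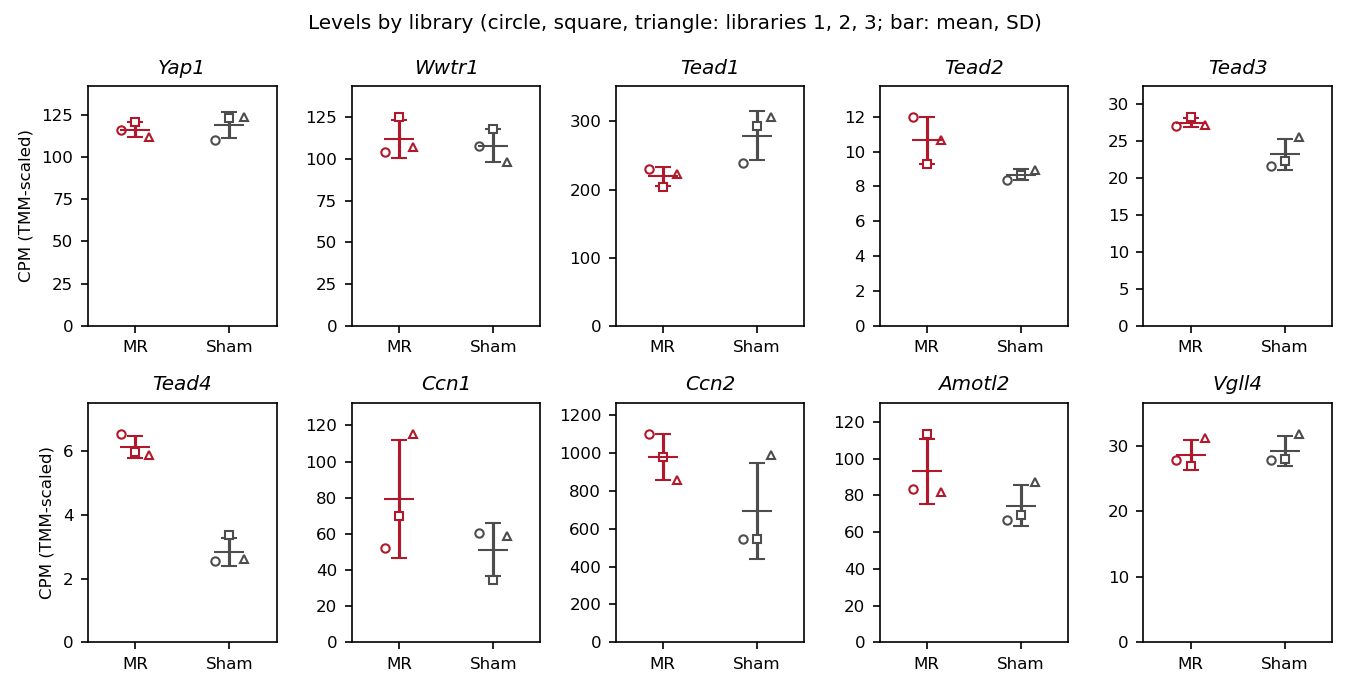
TMM-scaled CPM of each member by library, MR on the left and Sham on the right of each panel, with the mean and SD of 3 libraries and an axis from 0. Tead4 separated the groups most clearly, at 5.89 to 6.54 CPM in MR and 2.56 to 3.36 CPM in Sham, while Yap1, Wwtr1 and Vgll4 overlapped.

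Set side by side per length, the order of the members was nearly the same in both groups. Ccn2 was far the most abundant, with 883 ± 138 TPM in MR and 499 ± 203 TPM in Sham (SD, n = 3 each), and its lowest library stood above the highest of Ccn1 in each group. Next came Ccn1 at 99.9 ± 36.9 TPM in MR and 52.1 ± 16.0 TPM in Sham. Below them Wwtr1 averaged 60.5 ± 7.73 TPM in MR and 46.0 ± 2.41 TPM in Sham, values that overlapped those of Ccn1 in both groups. Tead1 (41.5 TPM in MR and 42.0 TPM in Sham), Amotl2 (38.2 TPM in MR and 24.2 TPM in Sham) and Yap1 (32.3 TPM in MR and 26.2 TPM in Sham) formed the middle. Neighbours overlapped there within MR, whereas in Sham Tead1 stood apart from Yap1. Vgll4 followed at 13.6 TPM in MR and 11.1 TPM in Sham. The lower ranks were Tead3, Tead2 and Tead4 in both groups, with Tead4 lowest at 4.39 ± 0.371 TPM in MR and 1.60 ± 0.207 TPM in Sham, and no 2 neighbours among these 4 overlapped.

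YAP1 and TAZ are the paired co-activators of the pathway, and neither transcript passed the test with TMM scaling. Yap1 (ENSMUSG00000053110) had 116, 121 and 112 CPM in MR 1, MR 2 and MR 3, against 109.9, 123 and 124 CPM in Sham 1, Sham 2 and Sham 3. Values of other genes are given in the same order of libraries. All 6 libraries lay close together, and the log2 fold change was -0.03 ± 0.09, where the error is the SE here and for every log2 fold change that follows (edgeR adjusted p = 0.83). Wwtr1 (ENSMUSG00000027803) was at 104, 125 and 107 CPM in MR libraries and at 108, 118 and 98.3 CPM in Sham libraries. Here too the groups overlapped, and the log2 fold change was 0.05 ± 0.11 (edgeR adjusted p = 0.756). On the deposited TPM, where the median gene had moved by 0.33, both passed upward, Yap1 at 0.30 (limma adjusted p = 0.0465) and Wwtr1 at 0.39 (0.0248), and under library totals they were at 0.18 and 0.26 and did not pass. The sign of both changes is thus not stable, and that of Wwtr1 was negative without MR library 2 (-0.03), without Sham library 3 (-0.02) and with MR library 3 alone (-0.02). Wwtr1 had more transcripts per length than Yap1 in every library, by 1.73, 2.01 and 1.86 times in MR and by 1.90, 1.85 and 1.54 times in Sham. These ratios do not depend on library scaling, and they overlapped between the groups (two-sided exact permutation test, p = 0.6, and 0.8 adjusted over 4 measures).

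Among the TEAD genes, which encode the DNA-binding partners of YAP and TAZ, 1 rose and 3 did not pass. Tead4 (ENSMUSG00000030353) is best known from the trophoblast and from regenerating skeletal muscle. It was at 6.54, 5.95 and 5.89 CPM in MR libraries and at 2.56, 3.36 and 2.60 CPM in Sham libraries, from 100, 93 and 118 counts in MR and 48, 46 and 36 counts in Sham. Every MR library stood above every Sham library, and the log2 fold change was 1.11 ± 0.18 (edgeR adjusted p = 0.00396), a 2.16-fold difference. The call was kept under each setting run, with an adjusted p of at most 0.026 when any 1 library was left out and of 0.0421 with MR 3 standing alone for MR. In the authors' deposited table the log2 fold change of Tead4 was 0.88 with an adjusted p of 0.000197.

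Tead1 (ENSMUSG00000055320), the most abundant TEAD gene and the one best known from cardiomyocytes, was lower in MR by a margin close to the threshold. It was at 230.1, 204 and 224 CPM in MR libraries, against 238, 293 and 306 CPM in Sham libraries. All 3 MR libraries lay below all 3 Sham libraries, although MR 1 and Sham 1 differed little. The log2 fold change was -0.35 ± 0.12, which did not pass (edgeR adjusted p = 0.0548). It passed with DESeq2 (adjusted p = 0.0252), after removal of GC content and transcript length trends (edgeR adjusted p = 0.0177), without a filter on low counts (0.0252) and without Sham 1 (0.039), and in the authors' deposited table (log2 fold change -0.38, adjusted p = 0.00243). Tead1 did not pass with any other single library left out (edgeR adjusted p = 0.0609 to 0.162). Nor did it pass with the replicate block (edgeR adjusted p = 0.0873) or with limma-voom (adjusted p = 0.0564). Under library totals the log2 fold change of Tead1 was -0.14 and under TPM -0.01, and neither passed. In these fits the median gene had moved upward by 0.21 and 0.33.

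Tead2 and Tead3 were slightly higher in MR. Tead3 (ENSMUSG00000002249) was at 27.1, 28.2 and 27.2 CPM in MR libraries and at 21.7, 22.3 and 25.6 CPM in Sham libraries. Its MR libraries were tightly grouped above Sham, and the log2 fold change of 0.25 ± 0.10 did not pass (edgeR adjusted p = 0.0925). Tead2 (ENSMUSG00000030796), known mainly from the embryo, was at 11.97, 9.28 and 10.7 CPM in MR libraries and at 8.36, 8.68 and 8.97 CPM in Sham libraries. The groups were separate by a narrow margin, with a log2 fold change of 0.30 ± 0.14 (edgeR adjusted p = 0.144), which was 0.19 without MR 1. Both passed under library totals (edgeR adjusted p = 0.0112 for Tead3 and 0.0217 for Tead2).

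The make-up of the TEAD transcripts is a measure free of library scaling. Tead1 held 67.0, 65.8 and 67.6% of the summed TPM of the 4 TEAD genes in MR libraries and 75.5, 78.0 and 77.9% in Sham libraries. Every MR value was below every Sham value, by 10.3 percentage points on average. On CPM, which are not divided by gene length, the difference was -5.70 points, so its size depends on the length scaling. With 3 libraries against 3 the smallest p that a two-sided exact permutation test can reach is 0.1, which this share had, and it was 0.4 after adjustment over 4 measures. The share of Tead4 was 7.05 ± 0.295% in MR and 2.98 ± 0.444% in Sham, that of Tead3 17.0 ± 1.29% and 13.0 ± 0.935% in MR and Sham, and that of Tead2 9.17 ± 0.692% and 6.85 ± 0.579% in MR and Sham (SD, n = 3 each). Summed TEAD transcripts amounted to 62.2 ± 3.51 TPM in MR and 54.4 ± 7.24 TPM in Sham, and they stood at 0.676 ± 0.0823 of the summed Yap1 and Wwtr1 TPM in MR and 0.752 ± 0.0923 in Sham.

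**Figure D2:**
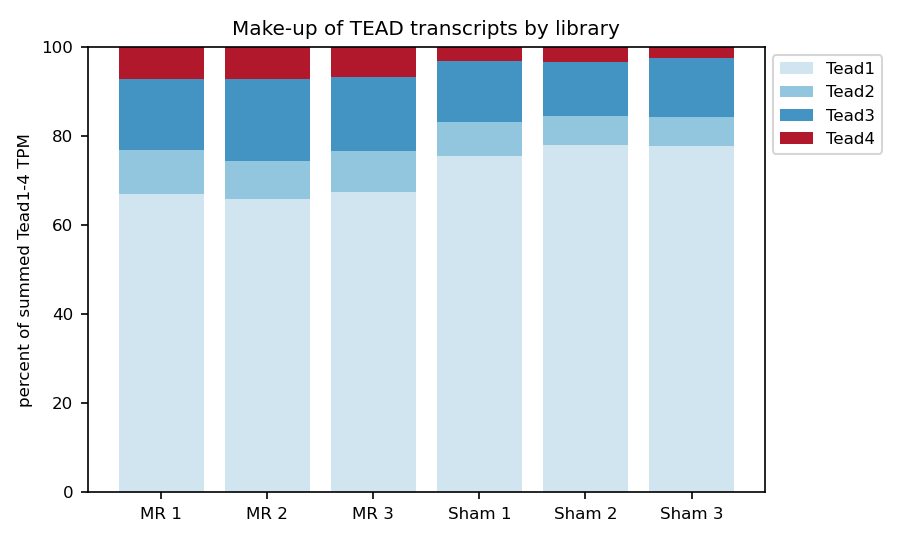
Percent of the summed TPM of Tead1 to Tead4 held by each gene, 1 bar per library, MR bars left of Sham bars. Tead1 fills 65.8 to 67.6% of the MR bars and 75.5 to 78.0% of the Sham bars, and the share of Tead4 at the top is 7.05% on average in MR and 2.98% in Sham.

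VGLL4 binds TEAD proteins through TONDU domains and displaces YAP. Vgll4 (ENSMUSG00000030315) was at 27.8, 26.9 and 31.2 CPM in MR libraries and at 27.8, 27.9 and 31.8 CPM in Sham libraries. The libraries of both groups interleaved, and the log2 fold change was -0.03 ± 0.10 (edgeR adjusted p = 0.878). The sign was positive under library totals (0.18), under TPM (0.30), without MR 2, without Sham 3 and with MR library 3 alone. Per TEAD transcript, Vgll4 stood at 0.204, 0.218 and 0.237 in MR libraries and at 0.222, 0.187 and 0.204 in Sham libraries. These ratios overlapped (two-sided exact permutation test, p = 0.5, and 0.8 adjusted over 4 measures), with a log2 difference of 0.11, or of 0.22 on CPM (p = 0.2 in the same exact test, unadjusted).

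Ccn2 (ENSMUSG00000019997), which encodes connective tissue growth factor, was at 1100.1, 980 and 856 CPM in MR libraries, against 548, 546 and 988 CPM in Sham libraries. MR libraries were uniformly high, and of the Sham libraries only Sham 3 reached their range. The log2 fold change of 0.50 ± 0.22 did not pass (edgeR adjusted p = 0.129). Without Sham 3 it was 0.83 and passed (edgeR adjusted p = 0.0168), and with any other single library left out it was between 0.35 and 0.58 and did not. In the supplied annotation 23.2% of the exon bases of Ccn2 lie opposite Gm15270, an antisense transcript with 37 to 70 counts per library against 7488 to 17155 for Ccn2. Reads of this stretch cannot be assigned with certainty, because no source used here gives the strand setting of the counting. The same holds for the short overlaps of Yap1 (1.25% of its exon bases) and Tead2 (0.272%) with genes on the opposite strand.

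Ccn1 (ENSMUSG00000028195), which encodes the integrin ligand CYR61, was at 52.3, 69.8 and 115 CPM in MR libraries and at 60.4, 34.4 and 58.9 CPM in Sham libraries. The spread within MR was 2.20-fold, and MR 1 lay below Sham 1 and Sham 3. The log2 fold change was 0.63 ± 0.28 (edgeR adjusted p = 0.13). It depended on single libraries: 0.24 without MR 3 (edgeR adjusted p = 0.466), 0.41 without Sham 2 (0.344), 0.84 without MR 1, where it passed (0.0384), and 1.16 with MR 3 standing alone for MR (0.0175). With no filter on low counts both Ccn1 (edgeR adjusted p = 2.37e-06) and Ccn2 (0.00256) passed. In that fit the SE was only 0.11 for Ccn1 and 0.13 for Ccn2, although the log2 fold changes were nearly unchanged (0.61 and 0.48). Those p-values therefore gave less weight to the spread between libraries than the main fit did. Ccn2 held 14.8, 9.91 and 5.24 times the TPM of Ccn1 in MR libraries and 6.40, 11.2 and 11.8 times in Sham libraries, so that the pair did not move in step across libraries. The ratio did not separate the groups (two-sided exact permutation test, p = 1, and 1 adjusted over 4 measures).

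Early response genes, which rise within minutes of serum exposure or tissue handling, varied between single libraries and in direction. Of 12 listed, all tested, 1 passed, beside 22.4% of all tested genes, 6 had a log2 fold change above 0, and the list median was -0.06. Their values summed to 494, 671 and 1307 CPM in MR libraries and to 644, 519 and 861 CPM in Sham libraries, so that MR 3 was highest in this sum as in Ccn1, with Egr1 as its largest part there. Egr1, a zinc finger factor of this class, was at 82.0, 246 and 575 CPM in MR libraries and at 98.1, 128 and 160 CPM in Sham libraries (log2 fold change 1.23 ± 0.52, edgeR adjusted p = 0.113, and 0.00642 without MR 1). Its relative Egr2 was the 1 of 12 that passed, at 4.77, 13.3 and 80.7 CPM in MR libraries against 4.47, 2.70 and 7.01 CPM in Sham libraries (log2 fold change 2.82 ± 0.85, edgeR adjusted p = 0.0401). Without MR 3 the log2 fold change of Egr2 was 0.92 and the call ended (edgeR adjusted p = 0.154), as it also did without any 1 of the Sham libraries (up to 0.142). Others had negative values that did not pass, among them the phosphatase gene Dusp1 (-0.32 ± 0.21, edgeR adjusted p = 0.291) and the AP-1 genes Fos (-0.69 ± 0.33, edgeR adjusted p = 0.159), Fosb (-0.70 ± 0.53, edgeR adjusted p = 0.369) and Jun (-0.46 ± 0.28, edgeR adjusted p = 0.271). Without MR 3, Fos and Fosb were called lower (edgeR adjusted p = 0.012 and 0.0335), as was Jun without Sham 2 (0.0463). In the other direction, Junb and Ier2 were called higher without MR 1. Their log2 fold changes there were 1.38 and 0.85 (edgeR adjusted p = 0.00855 and 0.0122). With MR 3 standing alone for MR they were 1.74 and 1.16. The part of these genes' variation in the values of Ccn1 was not tested.

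**Figure D3:**
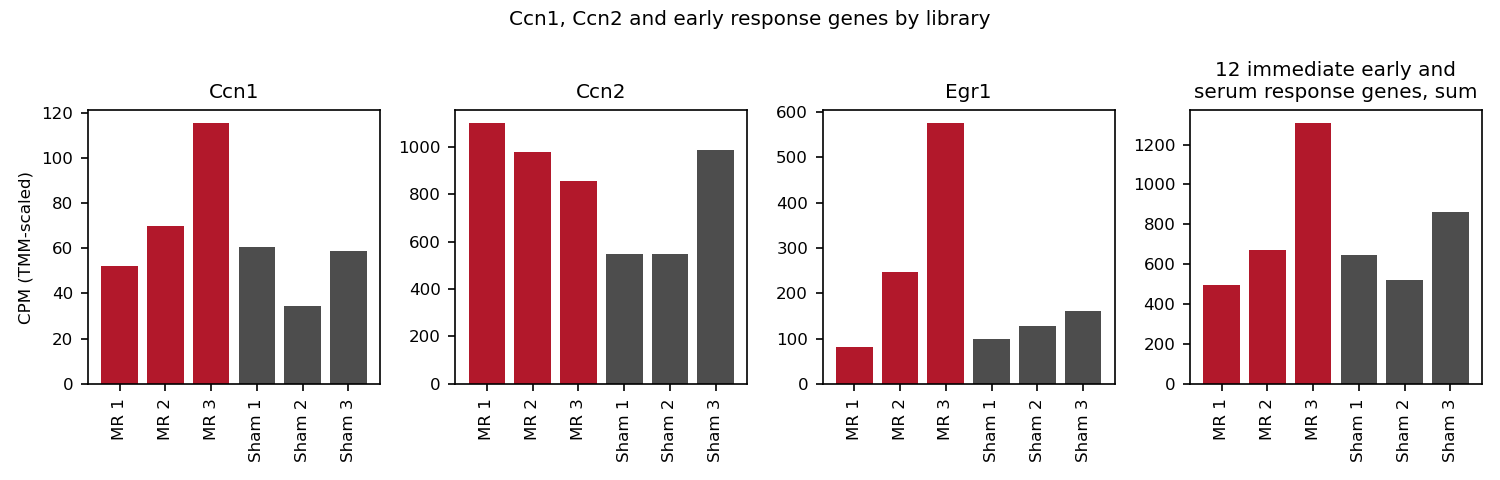
TMM-scaled CPM of Ccn1, Ccn2, Egr1 and the sum of 12 early response genes in each library, MR bars left of Sham bars, with axes from 0. MR 3 is highest in Ccn1 (115 CPM), Egr1 (575 CPM) and the sum (1307 CPM), whereas in Ccn2 it is the lowest MR library (856 CPM).

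AMOTL2 links junctions to YAP. Amotl2 (ENSMUSG00000032531) was at 83.6, 114 and 82.0 CPM in MR libraries and at 66.8, 69.5 and 87.1 CPM in Sham libraries. Sham 3 lay above MR 1 and MR 3, and the log2 fold change of 0.32 ± 0.15 did not pass (edgeR adjusted p = 0.144). It was 0.16 without MR 2 and 0.44 without Sham 3, and neither passed. Under library totals the call was made (edgeR adjusted p = 0.0311), as for Ccn1 (0.0442) and Ccn2 (0.0379). In the authors' deposited table none of the 8 members other than Tead1 and Tead4 passed, and several changes there were smaller. The log2 fold change in the authors' deposited table was 0.11 for Ccn1, 0.25 for Ccn2, 0.21 for Amotl2, 0.11 for Tead2, 0.15 for Tead3, 0.05 for Wwtr1, -0.07 for Yap1 and 0.02 for Vgll4.

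**Figure D4:**
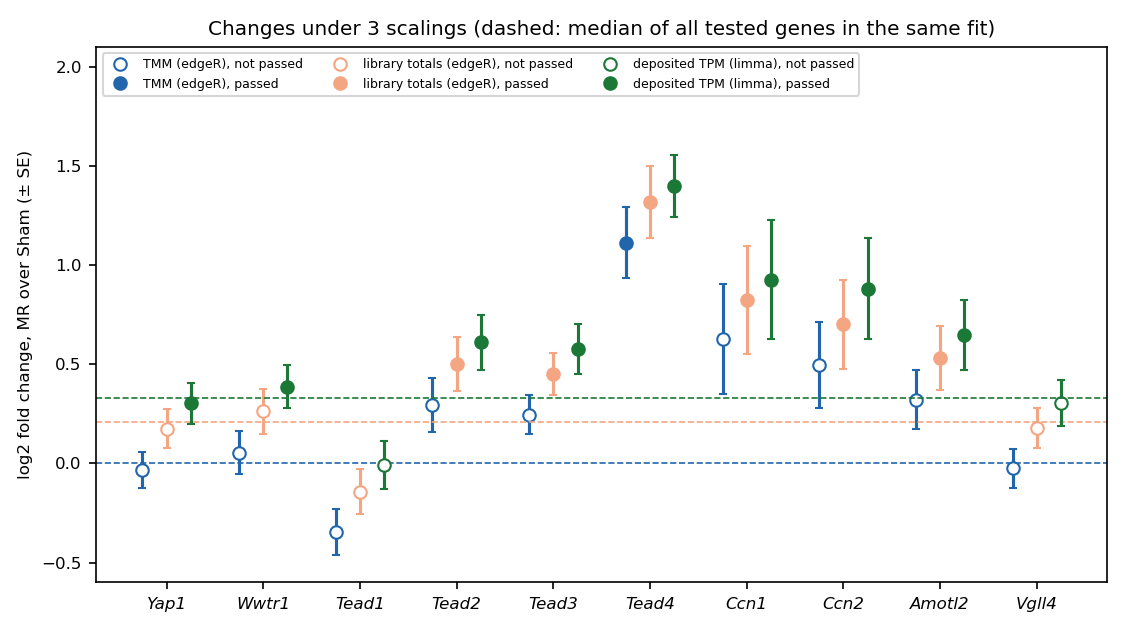
Log2 fold change of MR over Sham for each member with its SE, under TMM, under library totals and on the deposited TPM; filled points passed and open points did not, and dashed lines mark the median gene of each fit. The points of a gene shift upward together with the dashed lines at 0.0016, 0.21 and 0.33, Tead4 is filled under all 3, and Tead1 lies below the dashed line of each.

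Other listed YAP and TAZ target genes, chosen as readouts known from other cell types, included several large differences. Of 17 listed, 15 were tested, 8 rose and 1 fell, beside the background of 11.8% higher and 10.6% lower. The median log2 change over the 15 was 0.36, beside 0.0016 over all tested genes. Igfbp3, a binding protein of insulin-like growth factors, had 151, 92.3 and 91.4 CPM in MR libraries against 14.8, 18.1 and 19.2 CPM in Sham libraries (log2 fold change 2.69 ± 0.20, edgeR adjusted p = 0.00013). Ankrd1, whose upstream sequence is printed above, was at 2179, 3933 and 2311 CPM in MR libraries and at 793, 1060 and 1102 CPM in Sham libraries (1.51 ± 0.23). In both genes the groups were far apart. Myof, the membrane repair gene myoferlin (1.03 ± 0.15), Crim1, a transmembrane regulator of BMP ligands (0.87 ± 0.14), and Dock5, an activator of the GTPase RAC (0.66 ± 0.11), rose as well, with edgeR adjusted p = 0.00271, 0.00432 and 0.0053. Gadd45a, a stress gene of growth arrest, fell, with 3.99, 3.52 and 3.79 CPM in MR libraries and 8.36, 7.44 and 6.51 CPM in Sham libraries (-0.98 ± 0.16, edgeR adjusted p = 0.00442). The calls of these 6 genes were kept with any 1 library left out. The other 3 that rose, Nuak2, Ccdc80 and Rbms3, did so by 0.77, 0.42 and 0.36, and each of these calls ended with at least 1 library left out (edgeR adjusted p up to 0.0694, 0.0552 and 0.138). Axl, a receptor tyrosine kinase gene (0.14 ± 0.10, edgeR adjusted p = 0.369), and F3, which encodes tissue factor (-0.35 ± 0.16, edgeR adjusted p = 0.144), had the highest mean TPM of those that did not pass, and F3 was called lower without Sham 2 (edgeR adjusted p = 0.0242). Between 7 and 9 genes of this list changed with 1 library left out. Over all tested genes that count ran from 1583 of 15610 without Sham 1 to 3453 of 15542 without MR 1.

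Of 7 other vestigial-like and CCN genes, the paralogs of members, 4 could be tested and 3 of them rose, beside 11.8% of all tested genes. Ccn3, the matricellular gene also called Nov, was at 6.15, 6.02 and 5.39 CPM in MR libraries and at 2.40, 1.61 and 1.66 CPM in Sham libraries, a clear separation with a log2 fold change of 1.60 ± 0.21 (edgeR adjusted p = 0.00186). Ccn5, which lacks the C-terminal domain of the other CCN proteins, was at 18.6, 89.8 and 17.5 CPM in MR libraries and at 14.1, 11.1 and 10.99 CPM in Sham libraries. The log2 fold change of 1.78 ± 0.55 (edgeR adjusted p = 0.0438) rested on MR 2 and was 0.58 without it, where it still passed. The call ended without any 1 of the Sham libraries (edgeR adjusted p up to 0.125) and with DESeq2 (adjusted p = 0.0802). Vgll3, a TEAD partner described in muscle and fibroblasts, rose by 0.72 ± 0.21 on the log2 scale (edgeR adjusted p = 0.0341), but not without MR 2, Sham 1 or Sham 3 (up to 0.11). Ccn4 was lower and did not pass (-0.26 ± 0.11, edgeR adjusted p = 0.122).

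Upstream of YAP, transcripts of the kinases themselves mostly did not pass. Of 16 listed kinases and scaffolds, all tested, 4 rose and 1 fell, beside 11.8% higher and 10.6% lower over all tested genes, and the median over the list was 0.09 on the log2 scale. The scaffold genes Wwc1 (KIBRA; 1.20 ± 0.24, edgeR adjusted p = 0.00948) and Wwc2 (0.45 ± 0.10, edgeR adjusted p = 0.0135) rose. Wwc1 was low, at 3.97 to 4.29 CPM in MR libraries and 1.37 to 2.40 CPM in Sham libraries, and its call held with any 1 library left out, whereas that of Wwc2 ended without Sham 1 (edgeR adjusted p = 0.057). Taok2 (0.35 ± 0.10) and Stk38 (0.26 ± 0.08), kinases of the cascade, rose with edgeR adjusted p = 0.0282 and 0.0497. Nf2, the junction-linked tumour suppressor merlin, fell (-0.30 ± 0.09, edgeR adjusted p = 0.039), but was at -0.09 under library totals and at 0.03 under TPM. The median gene had moved upward by 0.21 under library totals and by 0.33 under TPM. The calls of Taok2 and Nf2 each ended without any 1 of 5 libraries and that of Stk38 without any 1 of all 6 (edgeR adjusted p up to 0.0994, 0.13 and 0.138). By mean TPM, the most abundant genes of the list that did not pass were Mob1a, a co-activator of the LATS kinases (0.28 ± 0.10, edgeR adjusted p = 0.0775, and 0.0425 without MR 1), and Map4k4, a kinase that acts on them (-0.10 ± 0.09, edgeR adjusted p = 0.466). With 1 library left out, between 1 and 5 genes of the list changed, beside 1583 (without Sham 1) to 3453 (without MR 1) of all tested genes.

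Of 16 junction and LIM regulators of YAP, all tested, 3 rose and 0 fell, a share near the 22.4% of all tested genes that changed and the 11.8% that rose. The median over the list was 0.08 on the log2 scale. Ptpn14, a phosphatase that holds YAP in the cytoplasm, was at 169, 237 and 221 CPM in MR libraries and at 107, 146 and 111 CPM in Sham libraries (0.79 ± 0.15, edgeR adjusted p = 0.00846), and its call held with any 1 library left out. The atypical cadherin genes Dchs1 (0.55 ± 0.15, edgeR adjusted p = 0.0293) and Fat1 (0.61 ± 0.19, edgeR adjusted p = 0.0449) rose too. These calls ended without MR 2, MR 3 or Sham 1 for Dchs1 (up to 0.0826) and without any 1 of 5 libraries for Fat1 (up to 0.155). Ctnna1, the alpha-catenin of adherens junctions, was lower (-0.35 ± 0.12, edgeR adjusted p = 0.0566), as was the dystroglycan gene Dag1 (-0.33 ± 0.13, edgeR adjusted p = 0.0876), and neither passed. Both were called lower with DESeq2 (adjusted p = 0.019 and 0.0495) and without MR 1 (edgeR adjusted p = 0.0259 and 0.0341). With other libraries left out the edgeR adjusted p went up to 0.149 for Ctnna1 and 0.239 for Dag1. On the TPM scale the median gene had moved by 0.33 log2 units towards MR. There the means of Ctnna1 hardly differed, at 207 TPM in MR and 209 TPM in Sham. For Dag1 they were 155 TPM in MR and 154 TPM in Sham.

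**Figure D5:**
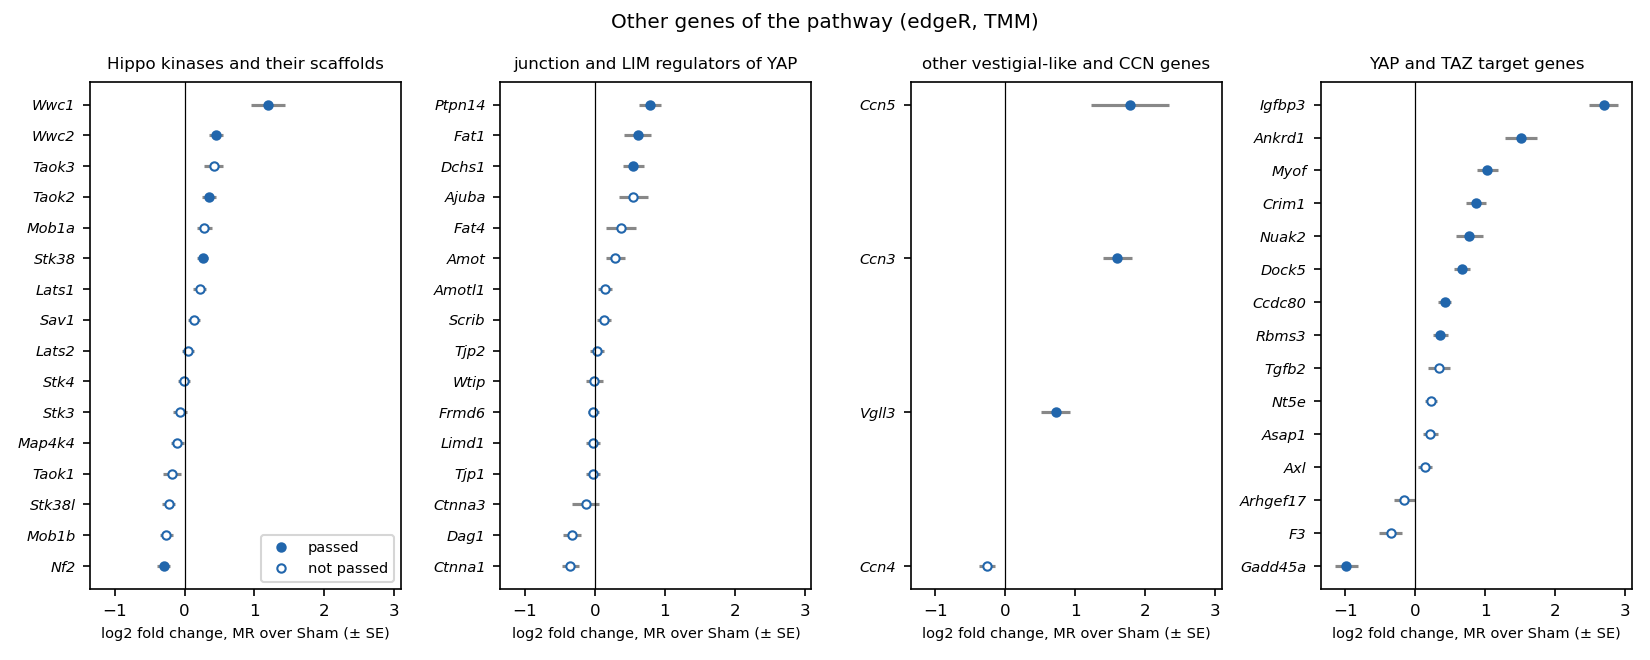
Log2 fold change of MR over Sham with its SE (edgeR, TMM) for every tested gene of 4 lists, 1 panel per list; filled points passed and open points did not. Filled points lie mostly right of 0, up to 2.69 for Igfbp3, and those left of 0 are Nf2 (-0.30) and Gadd45a (-0.98).

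Markers of the cell types in the tissue were summed as TMM-scaled CPM over 8 genes each, and their calls are given beside the 11.8% of all tested genes that rose and the 10.6% that fell. Epicardial and mesothelial markers summed to 488 to 803 CPM in MR and 147 to 272 CPM in Sham, and 7 of 8 rose. Fibroblast markers summed to 4871 to 5520 CPM in MR and 3999 to 4167 CPM in Sham (3 of 8 rose), and endothelial markers to 1018 to 1169 CPM in MR and 806 to 975 CPM in Sham (3 of 8 rose). For macrophage markers the sums were 562 to 754 CPM in MR and 424 to 435 CPM in Sham (7 of 8 rose), and for adipocyte markers 532 to 1166 CPM in MR and 415 to 580 CPM in Sham, with MR 3 inside the Sham range (4 of 6 tested rose). Smooth muscle and pericyte markers summed to 525 to 595 CPM in MR and 617 to 655 CPM in Sham (3 of 8 rose and 2 fell), but to more in MR on the TPM scale (299 to 342 TPM in MR and 269 to 293 TPM in Sham). Cardiomyocyte markers summed to 66658 to 79191 CPM in MR and 89255 to 101200 CPM in Sham, and 4 of 8 fell, whereas their summed TPM overlapped (122090 to 129520 in MR and 104420 to 134340 in Sham). Several of these calls ended when 1 library was left out. Over all tested genes 3408 were called in the main fit. That number was 1583, 1897 and 2288 without Sham 1, Sham 2 and Sham 3. It was 3453, 1941 and 2637 without MR 1, MR 2 and MR 3. The median log2 fold change of fibroblast markers was 0.39 in the main fit, and 0.39, 0.44 and 0.37 without Sham 1, Sham 2 and Sham 3. For cardiomyocyte markers it was -0.54, and -0.55, -0.52 and -0.51. The fibroblast calls went to 0 without any 1 Sham library, the endothelial calls to 0 without Sham 1 and to 1 without MR 2, MR 3 or Sham 3, and the cardiomyocyte calls to 0 without Sham 1 or Sham 3, to 1 without MR 3 and to 2 without MR 2 or Sham 2. The adipocyte calls went to 0 without Sham 1 or Sham 2 and with limma-voom, and to 7 without MR 3. The smooth muscle calls went to 2 without Sham 1 or Sham 2 and to 3 without MR 2 or Sham 3, whereas 7 or 8 epicardial and 5 to 8 macrophage calls were made with 1 library left out. No marker was at 0 counts in all 6 libraries. Those with the highest mean TPM in each list included Upk3b (1.66 ± 0.26) and Msln (1.44 ± 0.21) for the mesothelium, Lyz2 (0.73 ± 0.14) and C1qa (0.71 ± 0.10) for macrophages and Pecam1 (0.41 ± 0.12) for the endothelium, all of which rose, the call of Pecam1 ending without any 1 of 5 libraries (edgeR adjusted p up to 0.133). Other lists differed: Cfd of adipocytes rose, whereas Myl7 of cardiomyocytes and Rgs5 of smooth muscle and pericytes fell. Each of these calls ended without Sham 1. Rgs5 went against most of its list, where 6 of 8 markers had a log2 fold change above 0 and the median was 0.18. Acta2, the other of the 2 most abundant markers of that list, was among these 6. Gsn and Dcn of fibroblasts, Cdh5 of the endothelium and Plin4 of adipocytes, also among the most abundant of their lists, did not pass. The part of these cell type shifts in the values of Tead4, Tead1, Ccn1, Ccn2 and the target genes was not tested.

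The genes most like a member were taken as those with the smallest root mean square difference between log2 CPM profiles, each centred on its mean, over 6 libraries and 14283 candidate genes. For Yap1 these were Gorasp1 (0.0109), Otud7b (0.0187) and Sppl3 (0.0231), and for Wwtr1 they were Gng12 (0.023), Ptk2 (0.0252) and Snx18 (0.0286). The smallest differences were larger for Ccn1, to Mt2 (0.16), Ifit1 (0.19) and Gm43800 (0.196), and for Ccn2, to Rfx1 (0.114), Rfx2 (0.126) and Banp (0.131). This measure grows with a gene's own spread between libraries, which was wider for Ccn1 and Ccn2 than for Yap1 and Wwtr1. All values are in log2 units.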

How the data were processed

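Counts per gene and TPM in 3 MR and 3 Sham left atrial libraries were taken from the table the authors deposited. Stranded poly(A) libraries were sequenced as paired ends, per the labels' protocols. Tools listed in the submitters' processing notes are HISAT2 2.1.0, Subread 2.0.1 with featureCounts, SAMtools, fastp, FastQC, MultiQC and DESeq2, with the build GRCm39; which annotation release and strand setting were used is not given. Per the file headers, the counts are raw; TPM were made by the authors from them, since counts divided by TPM, after removal of 1 factor per library, were constant for each gene across libraries to within 0.0239%. A log2 fold change of MR over Sham with its p-value and adjusted p-value was also deposited by the authors, per the file headers, with any shrinkage not stated. 0 columns of per-sample values were left unused.

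The test of counts was edgeR 4.0.16's quasi-likelihood F-test (R 4.3.3; TMM, filterByExpr, 2 groups, no covariates; Benjamini-Hochberg at 0.05 over 15218 genes holding 99.8% of counts). The SE is the coefficient's size over the square root of F. Ratios within a library were compared by exact permutation over 20 splits, with adjustment over 4 measures. The alternatives were those named in the closing section (for the ratios, also CPM without length scaling), with DESeq2 1.42.0 and limma 3.58.1 (log2 of TPM plus 0.1). Transcript lengths, GC content and overlaps came from an older annotation through gene identifiers, which matched 99.9% of tested genes. Members, lists and alternatives were chosen with earlier results of these data known. Besides the members, the genes named per pathway list were up to 6 that passed, with the smallest p. Up to 2 that did not pass were also named, with the highest mean TPM. Nuak2, Ccdc80, Rbms3, Fos, Fosb, Jun, Junb and Ier2, and Ctnna1 with Dag1 under DESeq2, were described after their values were seen. Libraries of 1 group differed beyond sampling noise and none was a duplicate, with chi-square statistics of 13.0 to 22.8 per degree of freedom. Scripts were checked on simulated counts.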

Additional observations from a re-analysis of the deposited data

How the results depend on the processing

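Of all genes, 3408 changed. With 1 library left out the count was 1583 to 3453 (1583 without Sham 1, 1897 without Sham 2, 1941 without MR 2), with MR library 3 alone in its group, assumed to vary like the others, 976, and by limma on TPM 6140. Under library totals the split was 4025 higher and 574 lower, and on TPM 5891 and 249, against 1793 and 1615 with TMM. With GC content and length trends removed it was 1820 higher and 2000 lower.

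The counts of members and lists below stand beside those over all tested genes. Of 15218 genes, 3408 changed in the main fit, 4599 under library totals, 6140 on TPM, 3220 with DESeq2 and 3085 with the replicate block. With no filter 4507 of 28032 changed, with trends in GC content and length removed 3820 of 15202, and without Sham 1 1583 of 15610. Of the members 1 changed with TMM, DESeq2 size factors, at least 1 CPM in 3 libraries, limma-voom or the replicate block. The count was 6 under library totals, 5 with no filter on low counts, 2 with DESeq2, 2 with GC content and length trends removed, 8 on TPM, 2 with MR library 3 alone, and 1 to 2 with 1 library left out. The kinase and scaffold list, 5 in the main fit, had 8 under library totals, 3 with no filter, 10 on TPM, 3 with the replicate block, 0 with MR library 3 alone and 1 to 5 with 1 library left out (5 without MR 1, 1 without Sham 1 and 2 without the others). The junction list, 3 at first, had 7 under library totals, 7 with no filter, 6 with DESeq2, 9 on TPM, 5 with trends removed, 1 with MR library 3 alone and 1 to 6 with 1 library left out (6 without MR 1, 1 without MR 2, MR 3 or Sham 1). The paralogs, 3 at first, had 1 with MR library 3 alone and 1 to 3 with 1 library left out (1 without Sham 1 or Sham 3). The early response genes, 1 at first, had 2 under library totals, 9 with no filter, 3 with the replicate block, 4 with MR library 3 alone, 0 to 4 with 1 library left out (4 without MR 1, 0 without Sham 1 or Sham 3), and 0 with DESeq2, limma-voom, TPM or trends removed. The target list kept within 1.5 times its count of 9 in every setting. In the fit with no filter the SE of Ccn1 was 0.11, against 0.28 in the main fit. Counts from that fit therefore give less weight to the spread between libraries.

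Signs turned for Yap1 under library totals (0.18) and TPM (0.30), for Wwtr1 with MR library 3 alone (-0.0178) and with 1 library left out (-0.0279 to 0.114; negative without MR 2 and Sham 3), and for Vgll4 under library totals (0.18), TPM (0.30), MR library 3 alone (0.0908) and with 1 library left out (-0.0979 to 0.0351; positive without MR 2 and Sham 3). With 1 library left out the log2 ratio of Wwtr1 to Yap1 differed by -0.0119 to 0.141 (negative without Sham 3), that of Ccn2 to Ccn1 by -0.39 to 0.36 (0.36 without MR 3, 0.07 without Sham 2 and 0.12 without Sham 3, against -0.05), that of Vgll4 to TEAD by 0.05 to 0.17, and the Tead1 share by -11.2 to -9.86 points. On TMM-scaled CPM, without length scaling, the Tead1 share differed by -5.70 points and the Vgll4 ratio by 0.22, while the other two ratios kept 0.08 and -0.05. Apart from scaling, removed trends and omitted samples, the cause of these changes was not tested.

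Replicate numbers were treated as a label only. Deviations of same-numbered libraries correlated at -0.0098, -0.0101 and -0.186 across genes, and those of differently numbered libraries at -0.163 to 0.176. Deviations from a mean of 3 libraries depend on one another, so these values cannot exclude a pairing. With the number as a block Tead4 kept its call (log2 fold change 1.12, edgeR adjusted p = 0.00489) and no other member gained one. At these depths the lowest member, Tead4, had at least 36 counts in a library.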
